A study of Mus musculus with 18 samples.

Results

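Gene expression in the cerebellum was compared between mice carrying a knock-in named MPI 11Q on both alleles of Cacna1a and their wild-type littermates, 3 arrays against 3. The 6 arrays were chosen by their titles out of 18 in the study, which holds 2 other lines. The 11Q knock-in mice (11Q-KI) are homozygous and their wild types (11Q-WT) are littermates of the same line. The other lines are the homozygous MPI 118Q knock-in with its wild-type littermates (118Q-KI and 118Q-WT) and the homozygous Sca6 CtmKO with its wild-type littermates (CtmKO and CtmWT), also 3 arrays in each group. All 6 groups were of strain C57BL/6, from cerebellum, with no treatment named. The 118Q and CtmKO mice were 6 weeks old per the labels, and an age of the 11Q mice was not used here. The labels count n = 3 per group but do not say whether animals of a group shared a litter. The p values therefore measure the spread between samples, which may in part be technical. In the limma fit this spread is pooled over the 6 groups, so arrays of the other lines enter the SE of each 11Q change. The study addressed spinocerebellar ataxia type 6 and compared mouse lines with altered Cacna1a.

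Cacna1a encodes the pore subunit of Cav2.1, the P/Q-type calcium channel that drives transmitter release at many central synapses and is abundant in Purkinje cells, the output neurons of the cerebellar cortex. A CAG repeat in its last coding exon is read as glutamine in some splice forms, and its expansion causes spinocerebellar ataxia type 6, in which Purkinje cells degenerate. The cerebellum lies over the fourth ventricle and the brainstem, so a dissected cerebellum can hold choroid plexus, the epithelium that secretes cerebrospinal fluid, ependymal cells with beating cilia that line the ventricle, or pieces of hindbrain, where Hox genes stay on.

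Values are the log2 levels deposited for each probe set, and a change is the 11Q-KI mean minus the 11Q-WT mean on that scale, with its standard error (SE) taken from the limma fit. The tissue label was borne out by its markers: Pcp2, a Purkinje cell gene, lay between 10.5 and 10.7 in 11Q-KI and between 10.3 and 10.5 in 11Q-WT arrays, against array medians of 2.38 to 2.55. Correlations between pairs of the 6 arrays ran from 0.985 to 0.995, and the 5 lowest all involved 11Q-WT array 3. RNA quality was read from how far the 3' probe sets of the Gapdh and beta-actin controls exceeded the 5' ones, and this mean excess was 0.674 ± 0.065 in 11Q-KI and 0.640 ± 0.12 in 11Q-WT arrays (SD, n = 3 each, two-sided exact permutation p = 0.70, where 0.10 is the smallest possible). It was 0.501 on 11Q-WT array 3, the lowest of the 6 arrays.

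Cacna1a itself was at 6.23, 6.30 and 6.18 in 11Q-KI arrays, against 6.31, 6.24 and 6.43 in 11Q-WT arrays. The groups overlapped, and the change was -0.086 (SE 0.15, limma adjusted p = 0.933). The other 3 Cacna1a probe sets were 0.26, 0.25 and 0.21 higher in 11Q-KI, each short of the threshold (limma adjusted p = 0.909, 0.916 and 0.917 among all probe sets). The position of these probe sets against the altered exons was not analysed here, so they check neither the label nor the knock-in. Cacnb4, the beta subunit partner of Cav2.1, was 0.15 lower (SE 0.12, limma adjusted p = 0.884), with 8.63, 8.91 and 8.68 in 11Q-KI and 9.01, 8.77 and 8.89 in 11Q-WT arrays.

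Over all 18193 genes the 2 groups were hard to tell apart. limma called 0 genes at an adjusted p below 0.05 (0%). At an unadjusted p below 0.05 there were 998 genes (5.49%), of which 413 were higher (2.27%) and 585 lower (3.22%) in 11Q-KI. The 3 knock-in arrays lay wholly above the 3 wild-type arrays for 753 genes (4.14%) and wholly below for 1113 (6.12%), together 1866 genes (10.3%). The median change was -0.017, the median SE was 0.13, and 54.3% of genes lay below 0. The smallest adjusted p was 0.111, shared by Comp and Il33.

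The genes with the smallest p values clustered around Cacna1a on chromosome 8. Of the 20 genes with the smallest p, 10 lay on chromosome 8, which holds 5.17% of the genes with a chromosome (932 of 18032), and the next chromosome, 14, held 3. All 10 lay between 162 measured genes before and 110 after Cacna1a. The share of genes at an unadjusted p below 0.05 was 24% among the 50 nearest neighbours (12 genes), 16.5% among the nearest 200 (33 genes) and 14.8% among the nearest 400 (59 genes). It was 4.14% among the 531 genes of the chromosome that lay farther out, and 5.31% on all other chromosomes. Whether these differences came with the targeted allele was not tested.

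**Figure D1:**
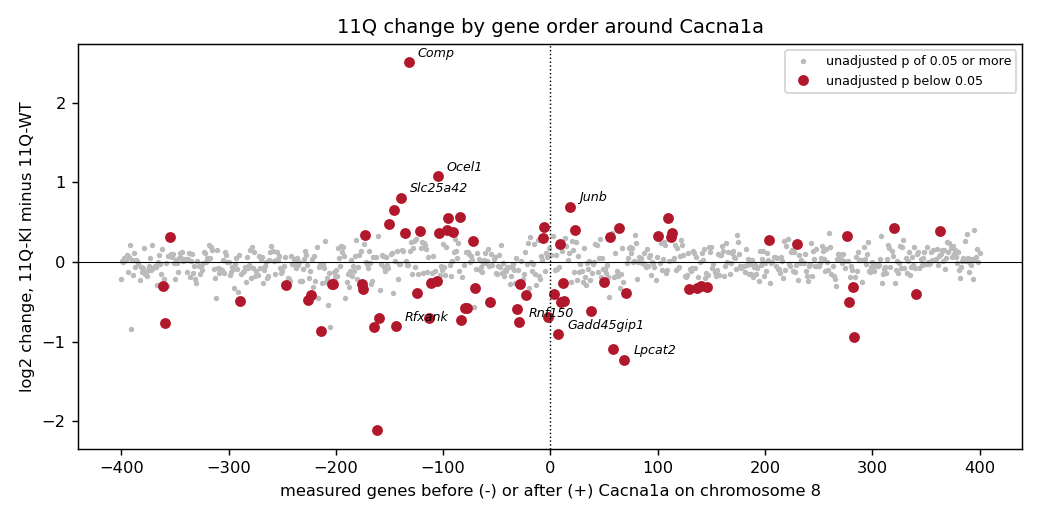
Each point is a measured gene on chromosome 8, placed by its order before or after Cacna1a (dotted line). Its log2 change, 11Q-KI minus 11Q-WT, is on the vertical axis, and red points have an unadjusted limma p below 0.05. Cacna1a itself and the genes farthest from it at both ends of the chromosome are not drawn. Comp at 2.50, Ocel1 at 1.08 and Slc25a42 at 0.81 stand above 0 and Lpcat2 at -1.22 and Gadd45gip1 at -0.91 below it, all within 162 genes of Cacna1a. The unlabelled point at -2.11 is a predicted locus.

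Comp, which encodes a matrix protein of cartilage, differed most among these. It was at 4.33, 4.48 and 4.40 in 11Q-KI arrays, against 1.85, 2.15 and 1.69 in 11Q-WT arrays. The groups were far apart, by 2.50 (SE 0.41, limma adjusted p = 0.111). The SD of Comp was 0.075 in 11Q-KI and 0.23 in 11Q-WT, against 0.66 in 118Q-KI and 1.26 in 118Q-WT. All of these enter the pooled SE. With the 6 arrays of the 11Q line fitted alone, the limma adjusted p was 0.000567, and 3 of 19 alternative settings called Comp. In the other lines Comp was at 3.35, 3.70 and 4.64 in 118Q-KI and at 1.95, 4.06 and 4.19 in 118Q-WT arrays. Thus 1 of the 3 118Q-WT arrays was as low as the 11Q-WT arrays and the other 2 were as high as the knock-ins. In the Ctm line all arrays were low, with 1.94, 1.54 and 1.61 in CtmKO and 1.58, 1.66 and 1.82 in CtmWT.

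Slc25a42, a mitochondrial carrier of coenzyme A, was at 4.81, 4.78 and 4.81 in 11Q-KI and at 4.17, 4.04 and 3.77 in 11Q-WT arrays. It was 0.81 higher (SE 0.15, limma adjusted p = 0.156) in 11Q and 0.55 higher (SE 0.15, limma adjusted p = 0.0634) in 118Q-KI. Its other probe set was 0.11 lower in 11Q-KI. Ocel1 was 1.08 higher (SE 0.28, limma adjusted p = 0.742), and Cngb1, a subunit of the cation channel of rod photoreceptors, 0.56 higher (SE 0.13, limma adjusted p = 0.583). Junb, a subunit of the transcription factor AP-1 and the 18th measured gene after Cacna1a, was at 3.61, 3.57 and 3.64 in 11Q-KI, against 2.67, 3.28 and 2.79 in 11Q-WT arrays. Its changes were 0.70 in 11Q (SE 0.20, limma adjusted p = 0.756) and 0.72 in 118Q (SE 0.20, limma adjusted p = 0.0780), and -0.12 in Ctm.

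Among the lower neighbours, Gadd45gip1, a component of mitochondrial ribosomes, was at 4.86, 4.99 and 4.88 in 11Q-KI, against 5.97, 5.65 and 5.84 in 11Q-WT arrays. The groups did not overlap, and the change was -0.91 (SE 0.16, limma adjusted p = 0.130). In the Ctm line the change was -1.39 (SE 0.16, limma adjusted p = 0.00128), while in 118Q it was -0.045. A dimmer second probe set of Gadd45gip1 was 0.52 higher in 11Q-KI, so its probe sets disagree in direction. Lpcat2, a lysophospholipid acyltransferase, was 1.22 lower in 11Q-KI (SE 0.23, limma adjusted p = 0.159), with 1.93, 1.87 and 1.88 in 11Q-KI and 2.55, 3.36 and 3.44 in 11Q-WT arrays, although its other probe set was 0.26 higher. Rfxank, a subunit of the factor that turns on MHC class II genes, was 0.80 lower (SE 0.16, limma adjusted p = 0.190), and its other probe sets were 0.30 higher and 0.18 lower. Zfp869, a zinc finger gene, was 0.71 lower, Zfp961 0.58 lower and Rnf150 0.76 lower. Rnf150 was 0.74 lower in the Ctm line as well (SE 0.18, limma adjusted p = 0.0613), at 4.08, 3.93 and 4.21 in CtmKO and 4.85, 4.86 and 4.72 in CtmWT arrays.

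**Figure D2:**
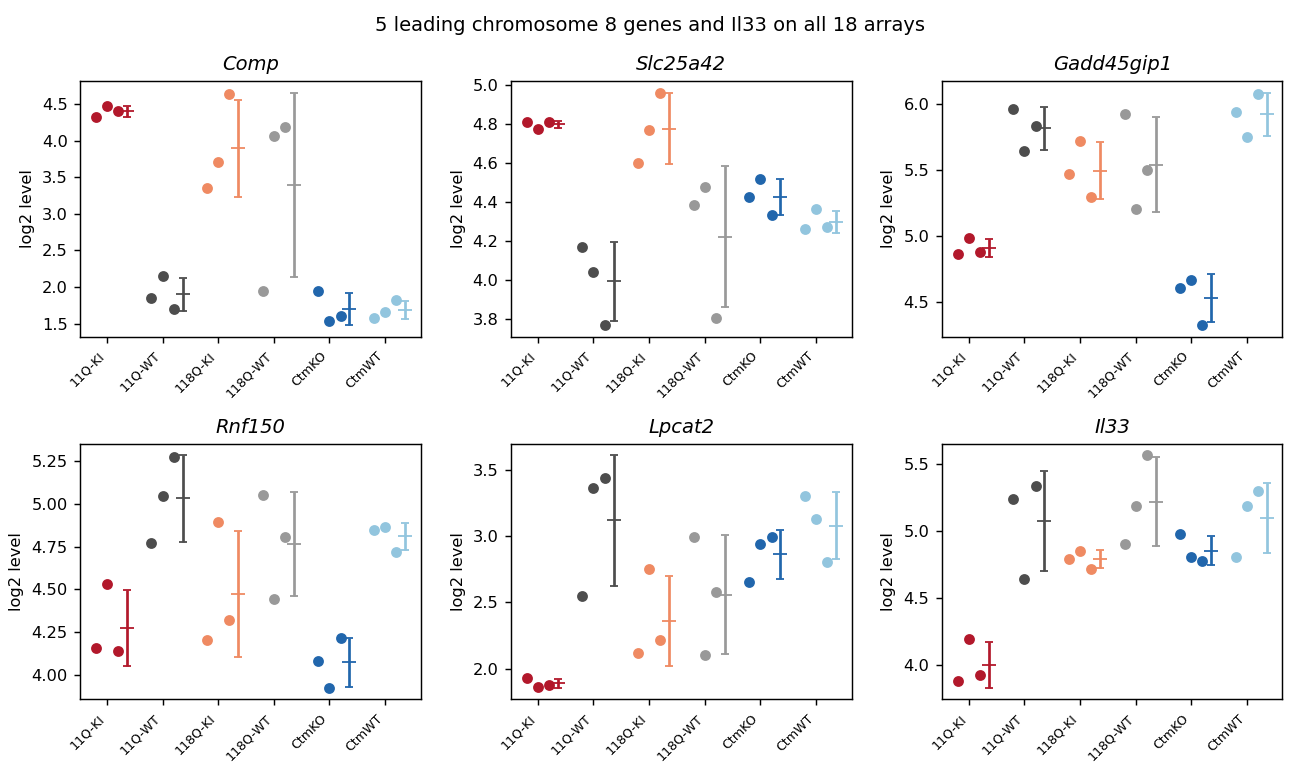
Log2 levels of Comp, Slc25a42, Gadd45gip1, Rnf150, Lpcat2 and Il33 on all 18 arrays, 3 points per group in the order of the array numbers, with the mean and SD beside them. Comp is above 4 in the 11Q-KI arrays and near 2 in the 11Q-WT and Ctm arrays, and Gadd45gip1 is low in both the 11Q-KI and CtmKO arrays.

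Among single probe sets chromosome 8 led as well, in part through values already given. All 34945 probe sets with 1 gene symbol were tested by themselves. Of these, 0 passed the adjusted threshold and 1830 had an unadjusted p below 0.05. Of the 20 with the smallest p, 14 belonged to 14 different genes on chromosome 8. That chromosome holds 5.17% of the genes with a chromosome. Comp, Gadd45gip1, Slc25a42, Lpcat2, Rfxank, Zfp869 and Zfp961 are among the 14 with the probe set described above, so they repeat the result by gene. Distances of the 14 from Cacna1a were not counted. Farsa and Prdx2, named after their values were seen, show how a difference can be specific to a probe set. For Farsa, the alpha subunit of phenylalanyl-tRNA synthetase, 1 probe set was 1.32 higher (SE 0.21, limma adjusted p = 0.0794), and the brightest of its 4 was 0.23 higher. For Prdx2, a peroxidase, the dimmer of 2 probe sets was 2.42 lower (SE 0.40, limma adjusted p = 0.0811), at 3.89 in 11Q-KI against 6.31 in 11Q-WT, and the brighter was 0.11 higher. Base differences under the probes were not analysed here.

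The same neighbourhood was set against the background of each line. Among the 50 nearest genes, 24% had an unadjusted p below 0.05 in 11Q (5.49% of all genes), 30% in 118Q (16.1% of all) and 18% in Ctm (12% of all). Among the nearest 200 the shares were 16.5% in 11Q, 15.5% in 118Q and 17.5% in Ctm. Among the nearest 100 in the same order of lines they were 17%, 21% and 17%, and among the nearest 400 they were 14.8%, 19.8% and 16.5%. The 11Q and Ctm shares were above their backgrounds in each window, and the 118Q share was above its own in each but the nearest 200.

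Off chromosome 8, Il33 stood out. It encodes a cytokine of the interleukin 1 family that is kept in cell nuclei and released on damage, and glia express it in brain. Il33 was at 3.88, 4.19 and 3.92 in 11Q-KI arrays, against 5.24, 4.64 and 5.34 in 11Q-WT arrays. The change was -1.08 (SE 0.18, limma adjusted p = 0.111), with no overlap, and the 3 knock-in arrays were also below all 12 arrays of the other lines, whose lowest was 4.72. Fhit, a dinucleoside triphosphate hydrolase on chromosome 14, was 0.87 lower (SE 0.19, limma adjusted p = 0.523), at 1.79, 2.07 and 1.88 in 11Q-KI and 2.78, 2.54 and 3.02 in 11Q-WT arrays. The rest of this group includes Arhgap18, 0.57 lower, Pnma2, a neuronal antigen, 0.68 lower, Tube1, epsilon tubulin, 0.64 lower, Spa17, 0.55 lower, and Plppr3, a membrane protein of neurons, 0.45 higher, with adjusted p from 0.306 to 0.672.

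Choroid plexus genes made the largest shift of any list. All 26 measured genes of the list were lower in 11Q-KI, with a median change of -1.62, against -0.017 over all genes. Of these, 15 had an unadjusted p below 0.05 (3.22% of all genes were lower at that p), 13 had groups that did not overlap (6.12% of all were lower in that way) and 0 passed the adjusted threshold, with a smallest adjusted p of 0.762. Changes ranged from -3.65 to -0.048. In these samples of whole tissue, fewer cells of a type and less RNA per cell cannot be told apart.

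The shift came mostly from 2 of the 3 knock-in arrays. Ttr, the thyroid hormone carrier that is the most abundant product of choroid epithelium, was at 7.68, 5.30 and 11.8 in 11Q-KI arrays, against 11.9, 11.9 and 11.9 in 11Q-WT arrays. Arrays 1 and 2 were low and array 3 was just below the wild types, at 11.81 against a lowest wild-type level of 11.90. The change of -3.65 had an SE of 1.69 (limma adjusted p = 0.876). Over the list, the count at an unadjusted p below 0.05 was 22 without 11Q-KI array 3, and it was 2 without array 1 and 2 without array 2. It was 3, 3 and 11 when 11Q-WT array 1, 2 or 3 was left out. Kl, the FGF23 co-receptor Klotho, was 0.86, 0.59 and 4.88 in 11Q-KI against 5.38, 5.40 and 4.80 in 11Q-WT arrays. The potassium channel subunit Kcne2, at 0.38, 0.59 and 4.51 in 11Q-KI and 4.83, 5.10 and 4.96 in 11Q-WT arrays, was also low on arrays 1 and 2.

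Transport and secretion genes of the epithelium differed by similar amounts. Folr1, the folate receptor that carries folate into cerebrospinal fluid, was 2.64 lower (SE 1.23), Car12, a carbonic anhydrase, 2.13 lower (SE 0.98), and Calml4 2.17 lower (SE 0.94). The chloride channel protein Clic6 was 2.01 lower (SE 0.83), the potassium channel Kcnj13 2.07 lower (SE 1.10), and the water channel Aqp1 1.79 lower (SE 0.82). Slc4a5, a bicarbonate transporter, was 1.64 lower (SE 0.62), Cldn2, a tight junction protein, 1.73 lower (SE 0.74), and Sostdc1, a BMP and Wnt antagonist, 2.11 lower (SE 1.07). The smallest p values of the list were those of Col8a1, a collagen, at -1.60 (SE 0.48, limma adjusted p = 0.762) and Otx2, the transcription factor of choroid epithelium, at -0.70 (SE 0.23, limma adjusted p = 0.868). Otx2 was at 4.60, 4.38 and 5.07 in 11Q-KI and 5.45, 5.47 and 5.22 in 11Q-WT arrays. Array 3 was thus below all wild types, as in the other genes of the list whose groups did not overlap.

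Other arrays of the study were as low. The mean over the list was 2.78, 2.58 and 4.54 in 11Q-KI arrays, against 5.02, 5.09 and 4.60 in 11Q-WT arrays. It was 4.71, 4.45 and 2.87 in 118Q-KI and 5.45, 2.76 and 4.47 in 118Q-WT, and 2.62, 3.59 and 4.87 in CtmKO and 5.17, 5.02 and 2.90 in CtmWT. A mean below 3 was seen on 6 of 18 arrays, in 5 of the 6 groups, wild types included, and 11Q-WT was the group without one. The 11Q change of the list, with a median of -1.62, stood beside -0.22 in 118Q and -0.64 in Ctm, and 1 of its 26 genes had an unadjusted p below 0.05 for the difference between 11Q and 118Q, against 10.3% of all genes.

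**Figure D3:**
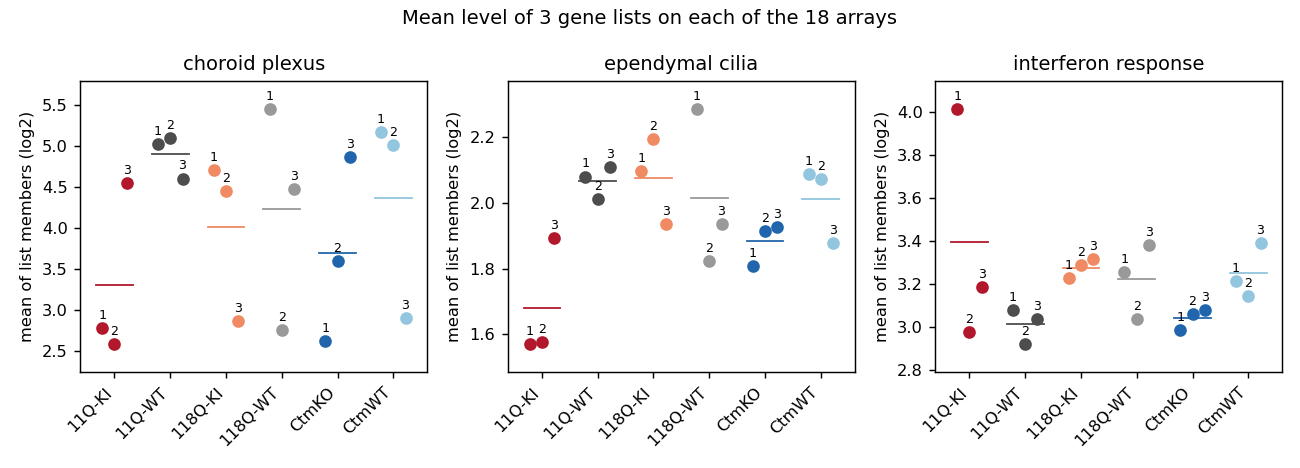
Mean log2 level of the choroid plexus, ependymal cilia and interferon lists on each array, with array numbers beside the points and a bar at the group mean. Choroid plexus means fall below 3 on 6 arrays of 5 groups, ependymal means are lowest on 11Q-KI arrays 1 and 2, and the interferon mean of 4.01 on 11Q-KI array 1 lies above all other arrays.

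Genes outside the lists moved with the choroid plexus. Within the 12 arrays of the other lines, 41 genes outside every list followed the list mean with a correlation of at least 0.9 after each group's mean was taken off. In 11Q, 38 of these 41 were lower, with a median of -0.64 and 15 at an unadjusted p below 0.05, against 54.3% of all genes below 0 and 3.22% lower at that p. They include Ecrg4, an augurin precursor of choroid epithelium, 2.57 lower, Htr2c, the serotonin receptor of choroid plexus, 2.38 lower, Krt18, a keratin, 1.46 lower, Mdfic 1.42 lower and Cab39l 0.79 lower, although another Cab39l probe set was 1.24 higher. Of 14 genes that followed it inversely, 11 were lower as well, with a median of -0.038.

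Ependymal cilia genes were lower in all 14 measured genes, with a median of -0.33, and 7 of them had an unadjusted p below 0.05 (3.22% of all genes were lower at that p) and 7 had groups that did not overlap (6.12% of all were wholly below). The count at that p was 2, 4 and 8 when 11Q-KI array 1, 2 or 3 was left out. It was 5, 8 and 3 when 11Q-WT array 1, 2 or 3 was left out. Dynlrb2, a dynein light chain of cilia, was at 1.87, 1.90 and 2.64 in 11Q-KI, against 2.95, 3.19 and 3.09 in 11Q-WT arrays (-0.94, SE 0.26, limma adjusted p = 0.756). Ak7, an adenylate kinase of cilia, was at 2.04, 2.08 and 2.12 in 11Q-KI and 2.52, 2.62 and 2.42 in 11Q-WT arrays (-0.44, SE 0.14, limma adjusted p = 0.778). In Ak7 the 3 knock-in arrays were alike, while in Dynlrb2, Pifo (-0.65) and Cfap126 (-0.58) array 3 lay nearer to the wild types. Over the list the arrays stood -0.50, -0.49 and -0.18 from the wild-type mean in 11Q-KI arrays 1, 2 and 3. Array 3 was nearest to the wild types, as in the choroid plexus list. With the choroid plexus mean as a covariate the list's median was -0.19, with 13 of 14 genes still below 0 and 2 at an unadjusted p below 0.05; Dynlrb2 was then -0.44 and Ak7 -0.28. Within the other 12 arrays, correlations with the choroid plexus mean ran from -0.69 to 0.94 over the list, with 5 of 14 below 0; Dynlrb2 was at 0.91 and Ak7 at 0.64. The median of the ependymal list was 0.082 in 118Q and -0.11 in Ctm.

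Some hindbrain genes were high on a single wild-type array. Hoxb5, a gene of the caudal hindbrain and spinal cord, was at 0.44, 0.13 and 0.51 in 11Q-KI, against 0.46, 0.36 and 3.48 in 11Q-WT arrays. Array 3 of 11Q-WT was alone in its level, and without it the change of -1.07 (SE 0.50) was -0.053. Hoxc4 was at 1.52, 1.38 and 1.28 in 11Q-KI and 1.34, 1.39 and 2.72 in 11Q-WT arrays, and Hoxa5 at 2.75, 2.79 and 2.47 in 11Q-KI and 2.64, 2.52 and 3.49 in 11Q-WT arrays. Genes of the brainstem neuron list with that array highest include Slc6a5, the glycine transporter of inhibitory neurons, which is also on the cerebellar interneuron list. Slc6a5 was at 4.33, 4.46 and 4.34 in 11Q-KI, against 4.29, 4.10 and 5.28 in 11Q-WT arrays. Glra1, a glycine receptor subunit, was at 0.65, 1.24 and 1.06 in 11Q-KI and 0.99, 0.94 and 3.82 in 11Q-WT arrays. Tac1, the substance P precursor, was at 1.06, 1.56 and 1.32 in 11Q-KI and 1.15, 1.39 and 3.65 in 11Q-WT arrays. In each of these genes 11Q-WT array 3 was the highest of the 6, and the other 2 wild-type arrays lay no higher than the highest knock-in array.

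Over the whole Hox list 17 of 22 genes were lower in 11Q-KI, with a median of -0.17, 2 at an unadjusted p below 0.05 (Hoxb5 and Hoxd1, beside 3.22% of all genes) and 3 with groups that did not overlap (6.12% of all genes). The lower genes at that p numbered 0 to 4 with 1 array left out. Outside every list, 17 genes followed the Hox mean with a correlation of at least 0.9 within the groups of the other lines. They went the other way, with 14 higher and 3 lower in 11Q-KI and a median of 0.13. Another 13 genes followed it inversely, and 8 of these were lower and 5 higher, with a median of -0.077. The highest of the 6 arrays was 11Q-WT array 3 for 9 of 22 Hox genes (40.9%), against 29.6% of all genes. The brainstem neuron list did not lean that way, with a median of 0.054. Isl1, Slc6a4 and Tlx3, a motor neuron, serotonin transporter and sensory neuron gene, were higher in 11Q-KI by 0.42, 0.33 and 0.36. These 3 had an unadjusted p below 0.05 (2.27% of all genes were higher at that p). All 3 are dim, at 3.07 or below on each of the 6 arrays. Hoxb5, Glra1 and Tac1 were also below that level on every array but 11Q-WT array 3. 11Q-WT array 3 was the highest array for 5 of the 21 brainstem genes (23.8%).

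Array 3 of 11Q-WT stood apart in other ways. It was the highest array by more than 1 for 22 genes and the lowest by more than 1 for 20, and it got the smallest of the 6 array weights, 0.345. The heat shock list was highest there, in 11 of 15 genes (73.3%): Hspa1a, the inducible HSP70, was at 3.79, 4.27 and 3.72 in 11Q-KI, against 3.89, 4.15 and 5.68 in 11Q-WT arrays, and Dnajb1, its co-chaperone, was at 6.42, 6.30 and 6.46 in 11Q-KI and 6.45, 6.47 and 7.24 in 11Q-WT arrays. The list's median of -0.16 was -0.021 without that array. Its part in the single results was measured by leaving it out.

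**Figure D4:**
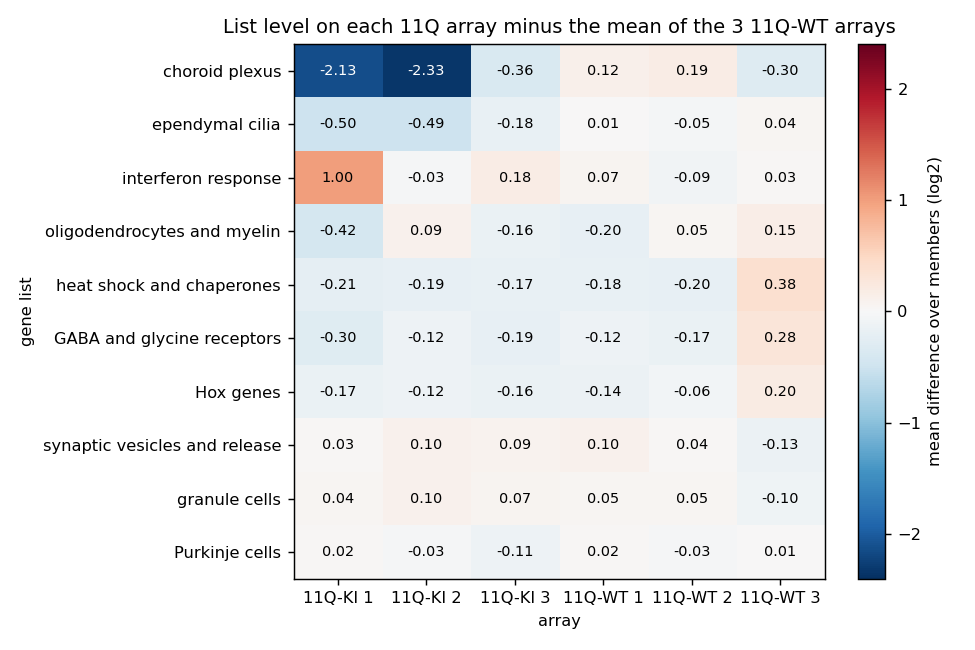
For 10 gene lists (rows) and the 6 arrays of the 11Q line (columns), the mean over members of the log2 level minus the mean of the 3 11Q-WT arrays. 11Q-KI arrays 1 and 2 are at -2.13 and -2.33 for the choroid plexus list, 11Q-KI array 1 is at 1.00 for the interferon list, and 11Q-WT array 3 is at 0.38 for heat shock genes.

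Interferon response genes turned on a single knock-in array. Interferon signals act on a short promoter word, the interferon-stimulated response element, at genes such as the Ifit family, which bind foreign RNA, and Ifitm3, which blocks the entry of viruses. Of the 6 measured list genes found with this word, 3 promoters are printed. They are those of Ifit1 and Ifitm3 and of Ifit3, which was chosen after its values were seen. They are RefSeq promoters of build GRCm38.p6, from 250 bases before to 50 bases after the start of the gene, 5′ to 3′ on the strand of the gene, and the capitals mark GAAA, then any 2 bases (NN), then GAAACT, or the reverse complement of this word.
Ifit1 promoter, chr19:34640639-34640938, plus strand: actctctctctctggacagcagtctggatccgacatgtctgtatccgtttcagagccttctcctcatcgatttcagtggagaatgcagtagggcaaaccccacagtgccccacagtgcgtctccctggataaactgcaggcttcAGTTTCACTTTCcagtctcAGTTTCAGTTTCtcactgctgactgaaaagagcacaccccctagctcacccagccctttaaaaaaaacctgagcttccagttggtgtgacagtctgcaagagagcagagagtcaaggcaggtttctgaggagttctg
Ifit3 promoter, chr19:34583279-34583578, plus strand: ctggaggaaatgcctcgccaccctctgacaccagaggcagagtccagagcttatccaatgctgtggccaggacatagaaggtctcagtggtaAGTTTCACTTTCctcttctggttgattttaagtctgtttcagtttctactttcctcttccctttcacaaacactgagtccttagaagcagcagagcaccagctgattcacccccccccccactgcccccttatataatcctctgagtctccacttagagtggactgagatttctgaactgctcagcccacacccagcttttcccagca
Ifitm3 promoter, chr7:141010695-141010994, minus strand: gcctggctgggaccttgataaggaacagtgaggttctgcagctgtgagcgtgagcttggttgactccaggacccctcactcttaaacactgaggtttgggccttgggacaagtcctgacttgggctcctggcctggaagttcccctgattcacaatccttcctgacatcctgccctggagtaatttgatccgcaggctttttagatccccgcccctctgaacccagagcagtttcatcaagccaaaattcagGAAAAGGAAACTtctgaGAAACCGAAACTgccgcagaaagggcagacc
The word, searched on both strands, was found in 6 of the 14 measured list genes with a promoter in the table and in 0.271% of all 32851 promoters (89). Ifit1 and Ifitm3 held 2 matches each, and Ifit3 held 1. A match is a description of letters and not a bound site.

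Of the 15 measured interferon genes, 14 were higher in 11Q-KI, with a median of 0.30, 3 at an unadjusted p below 0.05 (2.27% of all genes were higher at that p) and 3 with groups that did not overlap (4.14% of all were wholly above). Ifit1 was at 3.67, 1.69 and 1.73 in 11Q-KI, against 2.02, 1.55 and 1.35 in 11Q-WT arrays. Ifit3 was at 5.50, 2.93 and 3.16 in 11Q-KI, against 2.97, 2.89 and 3.57 in 11Q-WT arrays. In both, only 11Q-KI array 1 was high and the other knock-in arrays overlapped the wild types. Usp18, a protease that takes ISG15 off proteins, was at 3.77, 1.49 and 1.66 in 11Q-KI and 1.63, 1.16 and 1.53 in 11Q-WT arrays (0.87, SE 0.38, limma adjusted p = 0.876).

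Array 1 of 11Q-KI was the highest of the 6 arrays for 12 of the 15 genes (80%), against 15.4% of all genes. Without it the median was 0.069, 10 of 15 genes were above 0 and 2 had an unadjusted p below 0.05, whereas 10 had one without array 2. Without array 1, Usp18 was 0.13 higher and Ifit3 was -0.097. Ifitm3 and Tap1 were different. Ifitm3 was at 6.49, 6.13 and 6.12 in 11Q-KI and 5.80, 5.54 and 5.97 in 11Q-WT arrays, with no overlap (0.47, SE 0.12, limma adjusted p = 0.742), and 0.35 higher without array 1. Tap1, the peptide transporter for MHC class I, was at 2.74, 2.65 and 2.94 in 11Q-KI and 2.43, 2.38 and 2.13 in 11Q-WT arrays (0.46, SE 0.14, limma adjusted p = 0.765). Stat2 was 0.30 higher (SE 0.16). The list's median was 0.073 in 118Q and -0.21 in Ctm, and the mean of 4.01 on 11Q-KI array 1 was above the 17 other arrays, whose highest was 3.39.

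Neuronal lists stayed near the all-gene median. Of 21 Purkinje cell genes, 9 were higher and 12 lower in 11Q-KI, with a median of -0.067. At an unadjusted p below 0.05 (5.49% of all genes) were 3 genes: Pcp4l1 at -0.44 (SE 0.17), Ebf1, a transcription factor, at -0.37 (SE 0.16) and Homer3, a scaffold for metabotropic glutamate receptors, at 0.36 (SE 0.16). Pcp4l1 was at 5.33, 5.25 and 5.61 in 11Q-KI and 5.67, 5.75 and 6.10 in 11Q-WT arrays, which did not overlap. Its change was -0.22 with the choroid plexus covariate and -0.31 without 11Q-WT array 3, and those of Ebf1 and Homer3 were -0.23 and 0.22 without that array. The count at that p was 0 without 11Q-WT array 3, 0 without 11Q-KI array 2 and 1 without 11Q-KI array 1. There were 2 higher and 2 lower without 11Q-WT array 2. Without 11Q-KI array 3 there were 1 higher and 1 lower, and the same without 11Q-WT array 1. With wild types of another line added to make 6 controls, 5 genes were lower and 0 higher, and with the Hox mean as a covariate the count was 0.

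The named Purkinje markers that limma called in 118Q were near level in 11Q. Calb1, the calcium buffer calbindin, was at 10.8, 10.6 and 10.5 in 11Q-KI, against 10.7, 10.6 and 10.7 in 11Q-WT arrays, with a change of -0.022 in 11Q (SE 0.18) and -0.75 in 118Q (limma adjusted p = 0.0410). Car8, which binds the IP3 receptor, had a difference of -0.089 in 11Q and -0.65 in 118Q. Stk17b had -0.20 in 11Q and -0.96 in 118Q, and Ppp1r17, an inhibitor of protein phosphatase 2A, -0.12 in 11Q and -0.89 in 118Q. The list's median was -0.41 in 118Q, with 7 genes called, and 11 of its 21 genes had an unadjusted p below 0.05 for the difference between 11Q and 118Q, against 10.3% of all genes, with 0 past the adjusted threshold.

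Of 16 granule cell genes 9 were higher in 11Q-KI, with a median of 0.045 and 0 at an unadjusted p below 0.05. Cbln1, the bridge between granule cell fibres and Purkinje dendrites, was 0.21 higher (SE 0.12), and Reln, the secreted guide reelin, 0.19 higher, at 9.14, 9.09 and 9.13 in 11Q-KI and 8.99, 9.03 and 8.77 in 11Q-WT arrays. The 24 synaptic vesicle genes had a median of 0.045, 16 of them higher. Bsn, the active zone scaffold bassoon, was at 7.24, 7.05 and 7.13 in 11Q-KI, against 7.09, 6.98 and 6.24 in 11Q-WT arrays, 0.37 higher with all arrays and 0.10 higher without 11Q-WT array 3. Syn1, a synaptic vesicle phosphoprotein, was at 7.17, 7.21 and 7.09 in 11Q-KI, against 7.22, 6.93 and 6.13 in 11Q-WT arrays. Grm4, the metabotropic glutamate receptor of granule cell terminals, was 0.34 higher and 0.15 higher without that array, and Grm2, the receptor of Golgi cells, 0.37 and 0.19. Grin2c, an NMDA receptor subunit of granule cells, was 0.34 higher (SE 0.17), and its lowest level, 7.21, was on that array. 11Q-WT array 3 was the lowest of the 6 arrays for each of these genes, and without it Reln was 0.11, Grin2c 0.080 and Syn1 0.080 higher. The knock-in arrays of Reln also lay wholly above the other 2 wild-type arrays.

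Among 16 calcium channel subunit genes 10 were higher, with a median of 0.044, and Cacnb2 was 0.27 higher (SE 0.12) as the only one at an unadjusted p below 0.05. Cacng7 was 0.38 higher (SE 0.21), at 6.58, 6.55 and 6.49 in 11Q-KI and 6.37, 6.54 and 5.56 in 11Q-WT arrays. The 8 genes known from mice with other Cav2.1 mutations had a median of 0.056 and the 19 calcium signalling genes -0.0097, each with 0 at an unadjusted p below 0.05. The 18 glutamate receptor genes had a median of -0.042 with 2 higher at that p (2.27% of all genes), the 15 GABA and glycine receptor genes -0.11 with 1 lower (3.22% of all genes), and the 17 potassium and sodium channel genes -0.061 with 2 lower, of which Kcnc2, at 4.32 on 11Q-WT array 3, was -0.75 with and -0.25 without that array. Without 11Q-WT array 3, 0 genes of the glutamate, the GABA and glycine and the potassium and sodium channel lists had an unadjusted p below 0.05. In the same order of lists, there were 4 higher and 1 lower, 4 lower and 3 lower without 11Q-WT array 1. Without 11Q-WT array 2 there were 2 higher and 1 lower, 4 lower and 2 lower. Without 11Q-KI array 1 there were 1 higher, 0 and 0. The 16 interneuron genes had a median of -0.048 and the 7 cerebellar nuclei genes -0.11, each with 1 gene higher at that p.

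Most lists of glia, vessels and other tissues differed little. The medians were 0.029 over 19 microglia genes (0.54 in 118Q), -0.029 over 18 Bergmann glia and astrocyte genes, -0.065 over 17 endothelial and pericyte genes, -0.013 over 13 forebrain genes, -0.018 over 7 pineal genes and 0.013 over 5 red blood cell genes, with 0 of these genes at an unadjusted p below 0.05. Of 17 oligodendrocyte genes 15 were lower, with a median of -0.17, and Ermn, a cytoskeletal protein of myelin, was 0.46 lower (SE 0.20). That list was lowest on 11Q-KI array 1, and its median was -0.0041 without it. The median was -0.29 without 11Q-KI array 2, -0.25 without 11Q-WT array 1 and -0.25 with the choroid plexus covariate. In each of these 3 settings 3 genes were lower at an unadjusted p below 0.05. The 16 meningeal genes had a median of 0.12, 12 of them higher, although Lum, the proteoglycan lumican, was 0.52 lower (SE 0.16), at 2.73, 3.14 and 3.14 in 11Q-KI and 3.22, 3.53 and 3.81 in 11Q-WT arrays.

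In the remaining lists, 3 of 15 glucocorticoid response genes were lower with no overlap between groups (6.12% of all genes were). Pdk4, a kinase that turns off pyruvate dehydrogenase, was at 2.72, 2.39 and 2.35 in 11Q-KI, against 3.18, 3.24 and 3.53 in 11Q-WT arrays (-0.83, SE 0.24, limma adjusted p = 0.756). Arrdc2 was 0.71 lower (SE 0.29) and Sgk1, a serum and glucocorticoid regulated kinase, 0.87 lower (SE 0.40), at 6.63, 6.83 and 7.04 in 11Q-KI and 7.20, 7.72 and 8.17 in 11Q-WT arrays. The list's median was -0.10, and it was -0.18 without 11Q-KI array 1 (14 of 15 lower), -0.038 without 11Q-KI array 2, -0.052 without 11Q-KI array 3 and -0.23 without 11Q-WT array 1. The immediate early list had a median of -0.085 over 15 genes, with Junb higher and Egr2, a zinc finger factor, 0.26 lower. Its direction turned with 1 array left out, to 0.057 without 11Q-KI array 1 and 0.042 without 11Q-WT array 3, and its median was -0.27 without 11Q-WT array 1. The 16 unfolded protein response genes had a median of -0.12, the 28 oxidative phosphorylation genes -0.017 and the 15 circadian clock genes 0.060, with 0 genes at an unadjusted p below 0.05. Without 11Q-KI array 3 the circadian median was 0.30, with 12 of 15 genes higher and 4 higher and 1 lower at that p, and without 11Q-WT array 1 it was 0.19, with 2 higher and 1 lower.

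**Figure D5:**
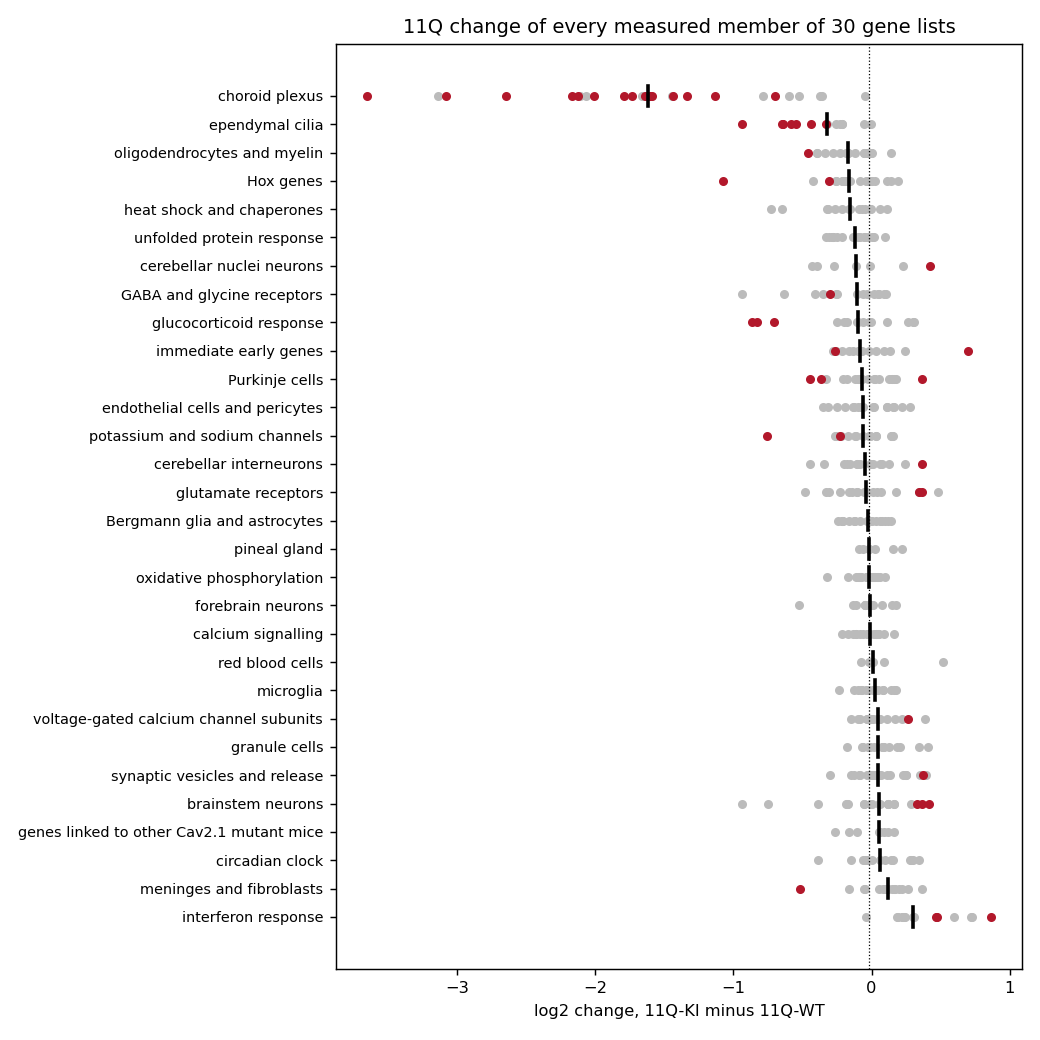
Each point is the log2 change, 11Q-KI minus 11Q-WT, of a measured member of 1 of 30 gene lists (rows); red points have an unadjusted limma p below 0.05, black bars are list medians and the dotted line is the median of all genes. The choroid plexus list, with a median of -1.62, and the ependymal list, at -0.33, lie to the left and the interferon list, at 0.30, to the right, and the neuronal lists sit around the dotted line.

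The difference between lines was tested directly. The 11Q change minus the 118Q change was called for 0 of 18193 genes (0%) by limma, with 1880 at an unadjusted p below 0.05 (10.3%), and the 11Q change minus the Ctm change for 0 (0%), with 1543 at that p (8.48%). In their own comparisons limma called 280 genes in 118Q (1.54%) and 169 in Ctm (0.929%). The 147 genes higher in 118Q had a median of 0.0053 in 11Q, with 53.1% above 0, and the 133 genes lower in 118Q had a median of -0.084, with 66.9% below 0, against 45.7% above and 54.3% below 0 over all genes. The smallest adjusted p for a difference from 118Q was 0.142, for genes that include Fhit (-0.87 in 11Q and 0.63 in 118Q). Kif1c, a kinesin (-0.29 and 0.62), and Nckap1l, a blood cell actin regulator (-0.39 and 0.46), had the same adjusted p. So did Tuba8 (-0.060 and -1.19) and Trem2 (0.032 and 0.89), which were near level in 11Q. For the difference from Ctm the leading genes were Taf15 (-0.25 in 11Q and 1.12 in Ctm) and Cdh19, a cadherin (-0.52 and 1.21). Each had a limma adjusted p of the difference of 0.105. Next were Amy1 (-0.15 and 1.71), Eea1 (-0.042 and 0.81) and Slf1 (-0.67 and 1.27), each with a limma adjusted p of 0.114.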

How the data were processed

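Total RNA of cerebellum was labelled and hybridised to Affymetrix arrays, 1 array per sample. The authors deposited 1 log2 value for each probe set and array, computed with RMA per the submitters' processing notes (no version given). Of 45101 probe sets, 64 were controls and 34945 had 1 gene symbol. Each of 18193 genes is represented by its brightest probe set on average over the 18 arrays. limma 3.58.1 in R 4.3.3 fitted 1 mean per group over 18 arrays with eBayes, and two-sided p values got the Benjamini-Hochberg adjustment, with a threshold of 0.05, across the full set of genes. The fit was tested on simulated data. Gene order came from RefSeq GRCm38.p6. The 30 lists hold 555 entries, 491 of them measured, and the others were not analysed here. Members and lists were chosen with earlier results of these data known. Named are up to 12 genes in each direction by smallest p among non-overlapping groups, up to 5 genes per list, members of the choroid plexus, Hox, brainstem and Purkinje lists, at most 8 genes that follow the choroid plexus, the 5 smallest p of each difference between lines, and Cacna1a and Cacnb4. Predicted loci and sex-linked genes were not named. Precision is limited by having 3 arrays per group. Alternatives changed the probe set, dim-gene filter, prior, weights, normalization, covariates, block, arrays and controls.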

Additional observations from a re-analysis of the deposited data

How the results depend on the processing

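The count of 0 genes called in 11Q was 1 with array weights (Comp), with the replicate block (Comp, adjusted p = 0.00351), with the 6 arrays alone (Comp) and with 11Q-WT and 118Q-WT pooled as 6 controls (Il33, adjusted p = 0.00921), and 0 to 1 with 1 array left out (Il33 without 11Q-WT array 2, adjusted p = 0.0154). The change of Comp ran from 1.75 to 2.63 (adjusted p 0.000567 to 1.00) and that of Il33 from -1.29 to -0.94 (adjusted p 0.00921 to 1.00) over the alternatives. Same-numbered arrays did not pair (correlations of their deviations 0.158, -0.128 and 0.016), and the replicate block changed no other call. The differences between lines gave 75 genes (118Q) and 144 (Ctm) with array weights, 4 (118Q) with the choroid plexus covariate and 1 (Ctm) with the mean of probe sets. At an unadjusted p below 0.05 there were 501 genes in 11Q with a Hox covariate, 1815 with the 6 wild types as control, 608 without 11Q-WT array 3 and 101 when a 1.5-fold change was also required. The RNA quality difference was -0.036 without 11Q-WT array 3 and ran from -0.036 to 0.078 with 1 array left out. Without 11Q-WT array 3, Hoxc4 was 0.029, Hoxa5 0.094, Tac1 0.047, Slc6a5 0.19 and Glra1 0.015, and the other end of the range with 1 array left out was -0.66 for Hoxc4, -0.39 for Hoxa5, -1.21 for Tac1, -0.40 for Slc6a5 and -1.42 for Glra1. With the Hox covariate Tac1 was 0.10, Slc6a5 0.00031, Glra1 0.063, Hspa1a 0.11 and Dnajb1 0.034, and with both covariates Hspa1a was 0.074, Dnajb1 0.025, Htr2c 0.074 and Cacna1a 0.0048. With array weights Hoxa5 was 0.0049 and Slc6a5 0.079, with 6 wild types Slc6a5 0.059, Cacna1a 0.11 and Prdx2 -0.019, and with the mean of probe sets Cacna1a 0.16 and Prdx2 -1.16. Calb1 was 0.047 after renewed quantile normalization and 0.035 without 11Q-KI array 3 (other end -0.092), and Ifit3 was -0.097 without 11Q-KI array 1 (other end 1.19). The cause of these was not tested. Of 1755 alternative values of single genes, 24 changed direction, in 12 genes. The Hox list mean was 1.20 to 1.57 on the 6 arrays, below the array medians of 2.38 to 2.55, so its levels are dim.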
